A study of Mus musculus with 15 samples.

Results

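The transcription factors that steer myeloid differentiation were measured in 15 mouse spleens that carried acute promyelocytic leukaemia (APL), in which blood cells are held at the promyelocyte stage of neutrophil development. The set was a list of 10 genes: Cebpa, Cebpb, Cebpd, Cebpe, Gfi1, Sfpi1 (the older name of Spi1, which encodes PU.1), Irf8, Klf4, Runx1 and Etv6. All probesets, the array's small groups of probes, whose only gene symbol was one of these names were taken, whatever their values. This gave 79 of the 208397 probesets with 1 symbol, and 9 of the 16299 genes so named; Cebpd was not analysed here. Each gene value is the median log2 intensity over the probesets of the gene.

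Spleen RNA of Bl/6 Taconic animals with APL was profiled on Affymetrix Mouse Exon 1.0 ST arrays, with 1 array for each of 15 tumours. All 15 formed 1 group, so no comparison with healthy spleen was made. Apart from strain, tissue and disease, the labels give no genotype, transgene, age or treatment, and whether each tumour is a separate animal is not stated. P-values therefore measure only the spread between these arrays, which may in part be technical. In whole spleens, fewer cells of a type and less RNA per cell cannot be told apart.

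C/EBP alpha and PU.1 act together at the start of the granulocyte and monocyte programmes, and C/EBP epsilon acts later, when neutrophil precursors make their secondary granules. Gfi1 is a zinc-finger repressor that favours granulocytes over monocytes, whereas Irf8 and Klf4 favour monocytes. Runx1 is a core factor of blood stem cells and early myeloid cells, and Etv6 is an ETS-family repressor needed for stem cells in the bone marrow. In APL, the fusion protein PML-RARA is known to disturb the programme run by C/EBP factors and PU.1.

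Array medians lay between 108 and 129 intensity units. Of primary granule genes, the mark of promyelocytes, 6 of 6 measured genes, among them Mpo and Ctsg, were detected, with a median level of 11.55 on the log2 scale. Genes with a mean above 6.41, the 40th percentile of gene means, count as detected. By this rule 9779 of all 16299 genes were detected, a share that the limit itself sets and beside which the list counts stand. Of the marker lists for other cells, 4 of 7 B cell genes were detected (Ms4a1, Ebf1 and Cd22 were not), as were 6 of 6 T cell and 6 of 6 monocyte genes, 4 of 5 erythroid genes (not Klf1) and 1 of 6 dendritic cell genes. A pair of arrays, tumor_9509 and tumor_9514, lay away from the rest: it correlated internally at r = 0.96 over all genes and with every other array at 0.95 or less. The pair also had the lowest array medians, 107.6 and 108.1, and the next lowest was 120.2 (tumor_9508). Results that rest on this pair are given with and without it. Tumour names have 2 digits (5 tumours) or 4 digits (10 tumours), a split that the labels do not explain. Of 9779 genes, 0 differed between these name sets after adjustment and 227 (2.32%) did at an unadjusted p under 0.05 (limma).

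All 9 measured factors were detected, where 9779 of all 16299 genes were, and they differed in how much they varied between tumours. Their SDs ran from 0.15 for Cebpa to 0.59 for Etv6, with a median of 0.30, beside a median of 0.29 over the 9462 detected genes with at least 3 probesets. Etv6 and Runx1 had larger SDs than 94.5% and 93.9% of those genes, and Sfpi1 than 83.4%. The gene values of Cebpa, Cebpb and Irf8 had SDs above those of 6.61%, 11.4% and 26.2% of them. A small SD of a median over probesets that do not follow one another does not show a steady gene: the brightest probeset had an SD of 0.34 for Cebpa and 0.56 for Cebpb. Levels of different genes are not compared, since probes differ in how strongly they bind.

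**Figure D1:**
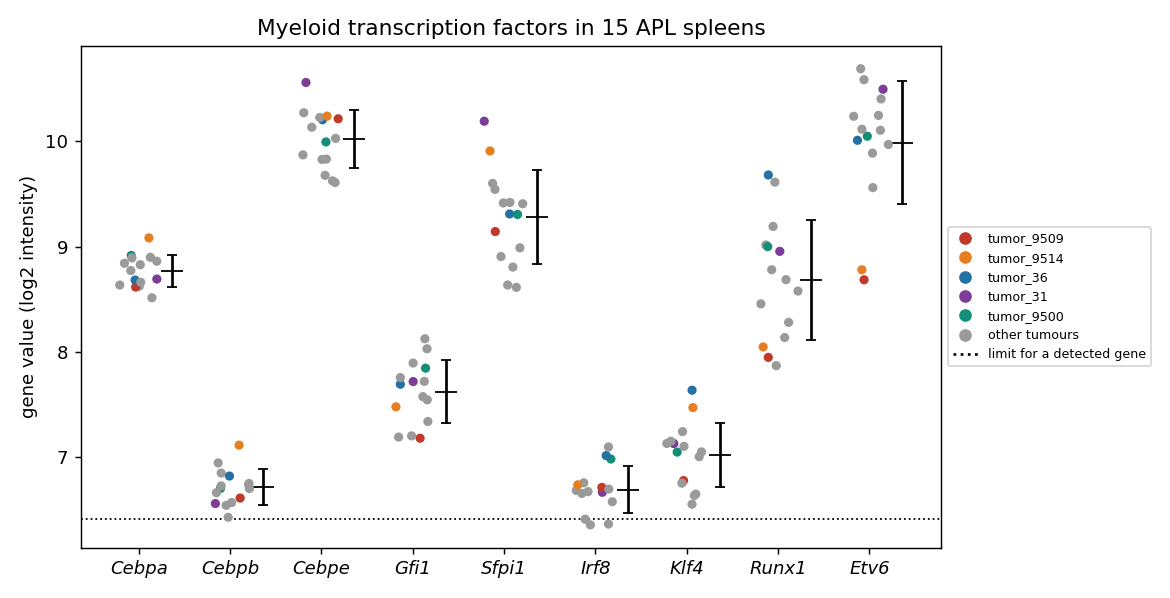
Gene values (log2 intensity) of the 9 measured factors in 15 APL spleens, 1 point per tumour, with mean and SD beside each column and the limit for a detected gene as a dotted line. Etv6 was lowest in tumor_9509 and tumor_9514, at 8.69 and 8.78, apart from the other 13 tumours at 9.56 or above, and Sfpi1 was highest in tumor_31 at 10.19.

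Among the C/EBP factors, the gene value of Cebpa varied least. Its lowest value was 8.51 (tumor_9492), its median 8.77 and its highest 9.08 (tumor_9514), with a mean of 8.77 ± 0.15 (SD, n = 15). Its 4 probesets, all above the detection limit, did not follow one another: the split-half r, the correlation across tumours between alternate probesets of the gene, was -0.03, against a median of 0.78 over detected genes. The brightest probeset, 4491082, ran from 10.82 in tumor_33 to 12.11 in tumor_9500. The order of tumours in Cebpa is therefore not supported by its own probesets.

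Cebpb, the C/EBP factor of emergency granulopoiesis and macrophages, was near the detection limit. It ran from 6.43 (tumor_9504) over a median of 6.70 to 7.11 (tumor_9514), with a mean of 6.71 ± 0.17 (SD, n = 15) and 4 of 6 probesets above the limit. As for Cebpa, its probesets disagreed, with a split-half r of -0.23. The brightest one, 4873135, was highest in tumor_31 (10.43) and lowest in tumor_9523 (8.60), the tumour with the second highest gene value (6.94), and its r with the gene value was -0.53.

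Cebpe had 4 probesets, all above the limit, and a split-half r of 0.83. By the other measure of agreement, 1 of 4 followed the median of the others at r above 0.5, with r between 0.39 and 0.52. Its values ran from 9.61 (tumor_9529) and 9.63 (tumor_9523) over a median of 10.03 to 10.27 (tumor_26) and 10.56 (tumor_31), with a mean of 10.02 ± 0.28 (SD, n = 15). The 5 tumours with 2-digit names averaged 10.28 and the 10 with 4-digit names 9.89. The 2-digit tumours lay between 10.14 and 10.56 and the others between 9.61 and 10.24, so the sets overlapped. The difference of 0.39 had an unadjusted limma p of 0.00576 and an adjusted p of 0.9997 over all genes, and relations with Cebpe are given within the 10 tumours as well.

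Sfpi1 encodes PU.1, an ETS-family activator of granulocyte, monocyte and B cell genes. It was lowest in tumor_29 (8.61) and tumor_9529 (8.64), had a median of 9.31, and was highest in tumor_9514 (9.91) and tumor_31 (10.19), with a mean of 9.28 ± 0.45 (SD, n = 15). All 7 probesets were above the limit and 6 of them followed the median of the others at r above 0.5, with a split-half r of 0.91. Tumor_31 and tumor_9514 were thus high, and tumor_29 and tumor_9529 low, in most of its probesets.

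Etv6, another ETS factor, split the series most clearly. Of all members it had the widest range, from 8.69 (tumor_9509) and 8.78 (tumor_9514) over a median of 10.11 to 10.59 (tumor_9523) and 10.69 (tumor_29), with a mean of 9.99 ± 0.59 (SD, n = 15). Without the 2 lowest tumours it averaged 10.18 ± 0.31 (SD, n = 13), and the next lowest tumour was tumor_9504 at 9.56. All 11 probesets followed the median of the others at r above 0.5, the split-half r was 0.95, and the brightest probeset, 4929130, ran from 9.97 in tumor_9514 to 11.98 in tumor_29. The pair is the same 2 arrays that stood apart over all genes.

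Runx1 varied almost as much as Etv6, but in another order of tumours. It read 9.68 in tumor_36 and 9.61 in tumor_9508, then 9.19 in tumor_9520 and 9.02 in tumor_9495, then 8.96 in tumor_31 with tumor_9500 between these, 8.78 in tumor_9504, 8.69 in tumor_26, 8.58 in tumor_9523 and 8.46 in tumor_9492. The lowest were tumor_29 at 8.28, tumor_33 at 8.14, tumor_9514 at 8.05, tumor_9509 at 7.95 and tumor_9529 at 7.87. Its mean was 8.68 ± 0.57 (SD, n = 15), and the values formed a continuous series, with tumor_36 and tumor_9508 at the top. All 12 probesets were above the limit, 10 followed the median of the others at r above 0.5, and the split-half r was 0.83. The brightest, 5512961, ran from 10.69 in tumor_9523 to 12.69 in tumor_36.

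Promoters of Runx1 and Etv6, the members with the widest spread, are shown to set the binding letters of the family beside them. Runx1 has a distal and a proximal start, each with its own promoter. The sequences are from RefSeq (GRCm38.p6), which held 10 promoters of 7 members and none matched to Cebpd, Cebpe or Spi1, and each spans 250 bases before to 50 after a transcript start, 5′ to 3′ on the gene's strand. Capitals mark matches on either strand to the RUNX letters TGTGGT, the ETS letters CCGGAAGT, the PU.1 box GAGGAA or the C/EBP letters TTGCNNAA; the ETS letters and the PU.1 box share the core GGAA.
Runx1 distal promoter, chr16:92826025-92826324, minus strand: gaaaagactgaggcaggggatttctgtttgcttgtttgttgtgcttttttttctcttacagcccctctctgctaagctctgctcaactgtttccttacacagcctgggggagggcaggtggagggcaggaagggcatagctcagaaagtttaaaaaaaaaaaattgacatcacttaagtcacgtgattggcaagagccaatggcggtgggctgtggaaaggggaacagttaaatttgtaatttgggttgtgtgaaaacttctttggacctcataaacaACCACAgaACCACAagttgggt
Runx1 proximal promoter, chr16:92697280-92697579, minus strand: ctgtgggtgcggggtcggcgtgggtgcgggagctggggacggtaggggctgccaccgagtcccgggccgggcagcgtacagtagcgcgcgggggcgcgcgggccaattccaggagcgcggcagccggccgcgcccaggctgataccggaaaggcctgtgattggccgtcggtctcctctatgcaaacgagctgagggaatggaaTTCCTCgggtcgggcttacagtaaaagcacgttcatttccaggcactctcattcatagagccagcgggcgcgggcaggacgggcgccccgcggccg
Etv6 promoter, chr6:134035450-134035749, plus strand: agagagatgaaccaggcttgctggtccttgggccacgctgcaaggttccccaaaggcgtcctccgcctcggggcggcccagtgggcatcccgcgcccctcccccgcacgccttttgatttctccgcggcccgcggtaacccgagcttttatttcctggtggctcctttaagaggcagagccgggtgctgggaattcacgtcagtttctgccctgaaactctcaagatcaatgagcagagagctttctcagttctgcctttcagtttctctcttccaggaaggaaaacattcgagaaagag
The distal Runx1 promoter held 2 RUNX matches and 45% G and C, while the proximal one held 1 PU.1 box and 69%. Etv6 had no match to any of the 4 motifs. Of all 32851 promoters of this length, 16.8% held the RUNX letters, 28.3% the PU.1 box, 10.8% the C/EBP letters and 3.89% the ETS letters. A match is only a stretch of letters, and the array values do not tell which Runx1 start was used.

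Gfi1 gave a mixed reading across its 17 probesets, of which 15 were above the limit. Its gene value was lowest in tumor_9509 (7.18) and tumor_9523 (7.19), had a median of 7.69 and was highest in tumor_9520 (8.03) and tumor_29 (8.12), with a mean of 7.62 ± 0.30 (SD, n = 15) and a split-half r of 0.85. Several of its bright probesets were lowest in tumor_9509 and tumor_9514, as Etv6 was. Probeset 5343308 read 7.59 and 7.65 in the pair, 9.47 in the third lowest tumour and 10.85 in tumor_36. Probeset 5049570 read 8.96 and 8.56 in the pair, with the third lowest tumour at 10.27, and the brightest one, 4333128, read 11.41 and 11.17 against 12.04. The median over probesets, which sets the gene value, carried little of this: tumor_9514 stood at 7.48, within the range of the other tumours.

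**Figure D2:**
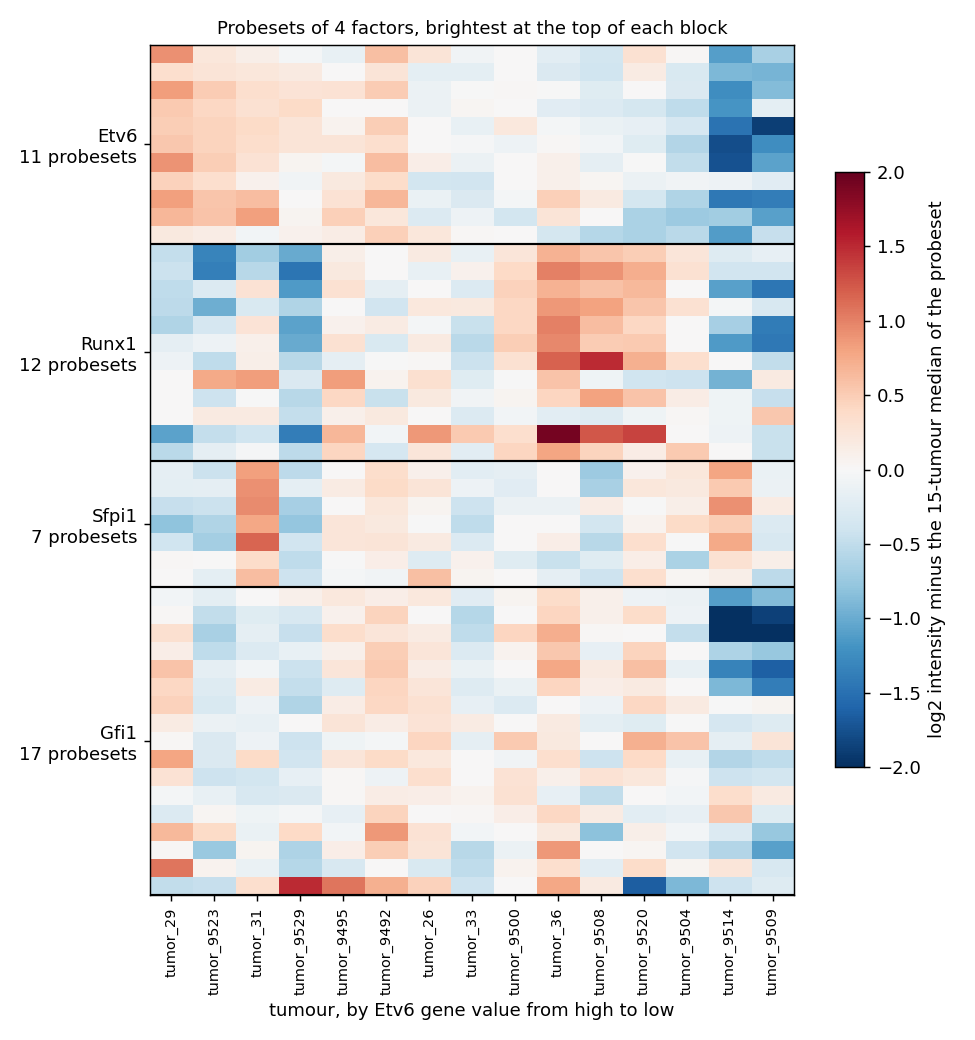
Deviation of each probeset from its own 15-tumour median (log2, colour) for Etv6, Runx1, Sfpi1 and Gfi1, with tumours ordered by Etv6 from high to low and the brightest probeset at the top of each block. The 2 right-hand columns, tumor_9514 and tumor_9509, are low in most Etv6 probesets and in the bright Gfi1 probesets, whereas Runx1 is high in tumor_36 and tumor_9508, and Sfpi1 in tumor_31 and tumor_9514.

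The gene values of the monocytic factors, medians over bright and dim probesets, were close to the detection limit. Irf8, which drives monocytes and dendritic cells, ran from 6.36 (tumor_33 and tumor_9523) over a median of 6.68 to 7.01 (tumor_36) and 7.10 (tumor_9520), with a mean of 6.69 ± 0.22 (SD, n = 15), and 3 tumours lay below the limit. Its split-half r was 0.68, with 6 of 9 probesets above the limit. Klf4, a zinc-finger factor of monocytes, ran from 6.55 (tumor_33) and 6.64 (tumor_9504) over a median of 7.05 to 7.47 (tumor_9514) and 7.64 (tumor_36), with a mean of 7.02 ± 0.31 (SD, n = 15) and a split-half r of 0.60. Both gene values were low in tumor_33 and high in tumor_36. The brightest probesets lay above the limit in every tumour, 5598827 of Irf8 between 7.68 (tumor_29) and 8.90 (tumor_9514) and 4932647 of Klf4 between 8.04 (tumor_9495) and 8.89 (tumor_9514).

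Whether the factors moved with one another was asked for all 36 pairs of measured members. No pair passed the adjusted threshold in both limma fits (0 of 36), and 2 had an unadjusted permutation p of Pearson's r under 0.05 (0 by Spearman's rho). Gfi1 and Irf8, which oppose each other in the monocyte decision, had r = 0.53 (permutation p = 0.0413; rho = 0.49, p = 0.0667), 0.50 without the 2 farthest tumours and 0.55 within the 10 tumours with 4-digit names. Cebpe and Sfpi1 had r = 0.52 (permutation p = 0.0494; rho = 0.36, p = 0.192). Without tumor_31 and tumor_9529, the 2 farthest tumours in Cebpe, r was 0.13. Within the 10 tumours, which include tumor_9529 but not tumor_31, it was 0.68. Cebpb and Klf4 had r = 0.51 (permutation p = 0.053), and 19 of 36 pairs had r above 0. Within the 10 tumours, Cebpe and Etv6 were called together at r = -0.84; over the 13 tumours without tumor_9509 and tumor_9514, which are 2 of those 10, r was 0.13.

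To see which genes differed between tumours together with a factor, each of 9778 other genes was fitted with limma on the factor's value. For 8 of the 9 factors, 0 genes passed an adjusted p of 0.05, with limma and with the permutation test of Pearson's r. The genes with an unadjusted limma p under 0.05 numbered 1162 (11.9%) for Runx1, 1128 (11.5%) for Sfpi1, 739 (7.56%) for Gfi1, 621 (6.35%) for Cebpe, 507 (5.19%) for Cebpb, 369 (3.77%) each for Cebpa and Klf4 and 299 (3.06%) for Irf8. By direction, the share of genes higher and lower was 9.95% and 1.93% for Runx1, 5.86% and 5.68% for Sfpi1, 5.91% and 1.65% for Gfi1, and 3% and 3.35% for Cebpe. It was 1.55% and 3.63% for Cebpb, 1.69% and 2.09% for Cebpa, 2.06% and 1.72% for Klf4, and 1.25% and 1.81% for Irf8. Etv6 was the exception, as described further on. Within the 10 tumours with 4-digit names, 652 genes (6.67%) were called with Cebpe, 613 of them lower, and 10 (0.102%) with Runx1. Without tumor_9509 and tumor_9514, the 2 of those 10 with the highest Cebpe, the counts were 0 and 1.

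Cebpe ran with the late neutrophil programme more than with other genes. Secondary granule genes, which neutrophils switch on after the promyelocyte stage and of which several are textbook C/EBP epsilon targets, had r above 0 in 12 of 13 cases. Their median r was 0.56 beside -0.06 over all genes tested, 0.57 beside -0.15 without the 2 farthest tumours and 0.58 beside -0.29 within the 10 tumours. None of the 13 passed the adjusted threshold, and 9 had an unadjusted limma p under 0.05 in the higher direction, where 3% of all genes did. Lysozyme (Lyz2) had r = 0.82 (adjusted p = 0.553). Lactoferrin (Ltf) ran from 7.67 in tumor_9508 to 12.24 in tumor_31 (r = 0.58), and the collagenase Mmp8 from 5.50 to 10.78 in the same tumours (r = 0.49). Lipocalin 2 (Lcn2, r = 0.63), S100a9 (0.68), cathelicidin (Camp, 0.59), Cd177 (0.56), Ngp (0.56) and Itgb2l (0.52) made up the 9, whereas haptoglobin (Hp) had r = -0.05. These names were chosen after their values were seen.

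Mature neutrophil genes followed Cebpe in the same sense. All 9 tested had r above 0, with a median of 0.49 (0.44 without the 2 farthest tumours, 0.48 within the 10). Of these, 6 had an unadjusted limma p under 0.05 in the higher direction, where 3% of all genes did. The chemokine receptor Cxcr2 had r = 0.60 and the formyl peptide receptor Fpr1 r = 0.52, with adjusted p = 0.767 for both. Of 11 C/EBP target genes 5 had an unadjusted p under 0.05 in the higher direction, namely Camp, Lcn2, Ltf, Mmp8 and Ngp. These 5 are also in the secondary granule list. The target list had a median r of 0.38, which was 0.18 without the 2 farthest tumours and 0.48 within the 10. Primary granule genes, made earlier, had a median r of -0.24 with all tumours included, beside -0.06 over all genes. This did not hold without the 2 farthest tumours, where their median r was -0.07 beside -0.15 over all genes. Within the 10 tumours their median r was -0.50 beside -0.29 over all genes. Cathepsin G (Ctsg, r = -0.63) and Cst7 (r = -0.48) were 2 of 6 with an unadjusted p under 0.05. Both were lower, where 3.35% of all genes were. T cell markers also had a median r of 0.42 with Cebpe, with 1 of 6 at an unadjusted p under 0.05, and their part in the granule gene relation was not tested.

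The single genes most like Cebpe were the cyclin Ccnd3, with r = 0.85 (rho = 0.79, adjusted limma p = 0.317), Lyz2 and Prr13 (0.79). Those most opposed were Timeless, a replication fork protein (r = -0.73), and Abraxas1 of the BRCA1-A repair complex (-0.73). Ccnd3 kept r = 0.72 without the 2 farthest tumours and 0.82 within the 10. It ran from 7.78 in tumor_9529 to 9.19 in tumor_31, the tumours that were also lowest and highest in Cebpe.

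**Figure D3:**
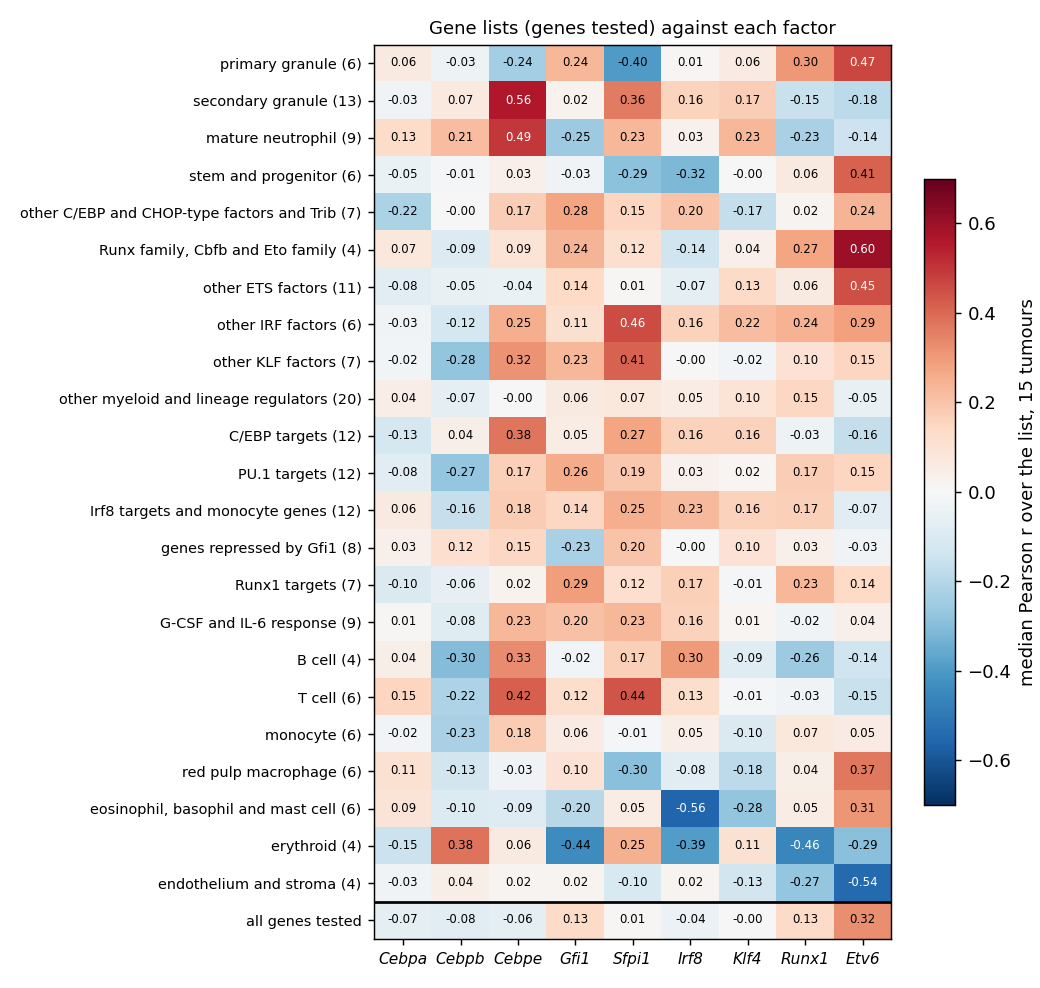
Median Pearson r over 15 tumours between each factor (columns) and the tested genes of 23 lists with at least 4 such genes (rows, number in brackets), with the median over all genes tested in the last row. Cebpe has its highest medians with secondary granule (0.56) and mature neutrophil genes (0.49), Irf8 its lowest with eosinophil, basophil and mast cell genes (-0.56), and the Etv6 column sits on a background of 0.32.

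Granule genes were looked at with Sfpi1 too, and 0 of 13 passed the adjusted threshold. All 13 secondary granule genes had r above 0, with a median of 0.36 beside 0.01 over all genes, and 4 had an unadjusted p under 0.05, where 5.86% of all genes did in that direction. T cell markers had a median r of 0.44 with Sfpi1 (5 of 6 above 0; 0.26 within the 10 tumours) and other KLF factors 0.41, and the part of T cells in the granule gene relation was not tested. Tumor_31, the highest in Sfpi1, also had the highest mean deviation of the secondary granule (0.56), T cell (0.64) and other KLF lists (0.63). The 4 granule genes were Chil3 (r = 0.72, adjusted p = 0.149), Lcn2 (0.72), Cd177 (0.62) and Lyz2 (0.57). Of 12 PU.1 target genes, 3 had an unadjusted p under 0.05: the oxidase subunit Ncf1 (r = 0.57), the integrin Itgam (0.51) and Lyz2. The target list had a median r of 0.19, and 9 of 12 members had r above 0. Primary granule genes had a median r of -0.40 (-0.33 within the 10 tumours), and 2 of 6 had r above 0. At an unadjusted p under 0.05 were Prtn3 (0.51) and Igsf6 (0.53), both higher, and Ctsg (-0.63) and Ms4a3 (-0.52), both lower.

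Other interferon regulatory factors, the family that partners PU.1 on composite sites, had a median r of 0.46 with Sfpi1 over 15 tumours, with Irf2 (0.59) and Irf7 (0.52) at an unadjusted p under 0.05 among 6. Within the 10 tumours the median was 0.02. The ETS factor Fli1 had r = 0.65 and was the 1 of 11 other ETS genes with an unadjusted p under 0.05. Beside both lists, 5.86% of all genes were higher with Sfpi1 at this unadjusted limma p. The genes most like Sfpi1 were the forkhead factor Foxn2 (r = 0.88, adjusted p = 0.132), the actin-binding protein Cotl1 (r = 0.87, adjusted p = 0.0611) and Rogdi (r = 0.86, adjusted p = 0.0611, limma). Cotl1 ran from 7.25 in tumor_9529 to 8.93 in tumor_31 and kept r = 0.82 without the 2 farthest tumours. The Elongator subunit Elp2 and the deadenylase scaffold Cnot1 were most opposed, each at r = -0.87.

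Sfpi1 lies on chromosome 2, and a shared loss there can be looked for in its neighbours. For each tumour, a gene's deviation from its 15-tumour median was taken, and the median deviation of all genes in that tumour was subtracted. Over the 50 detected genes nearest to Sfpi1 (from Selenoh to Hsd17b12), the median was -0.25 in tumor_36, with 41 of 50 below 0, -0.21 in tumor_9500 (46 of 50) and -0.24 in tumor_9509 (32 of 50). In the other 12 tumours it lay between -0.01 and 0.13. These 3 tumours lay apart from the 12, so no correlation over all 15 is given.

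Sfpi1 itself was not low in these 3 tumours. Its log2 value was 9.31 in tumor_36, 9.31 in tumor_9500 and 9.14 in tumor_9509, inside the range of the other 12 tumours (8.61 to 10.19, median 9.41). Only 9, 7 and 15 of the 50 neighbours, in that order, were at or above Sfpi1 in relative deviation. By probeset, all 7 were below 0 in tumor_9500 (-0.28 to -0.02), but 3 of 7 were in tumor_36 (-0.44 to 0.14) and 3 of 7 in tumor_9509 (-0.30 to 0.40). The tumours that were low in Sfpi1 were others: tumor_29, tumor_9529, tumor_9523 and tumor_33, whose neighbours lay between -0.01 and 0.12. Within the 12 tumours, the r of Sfpi1 with its neighbours was 0.27 (rho = 0.48).

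The low stretch was long in tumor_36 and shorter in tumor_9500, while tumor_9509 had hardly any. Bounded where a running median of 25 genes stayed below -0.1, it reached from Med19 to Nfatc2 in tumor_36 and held 394 detected genes, 335 of them (85.0%) below 0, with a median of -0.36, or 0.78-fold. In tumor_9500 it reached from Cwc22 to Aven, with 94 genes, 83 below 0 (88.3%) and a median of -0.23, or 0.854-fold. In tumor_9509 the running median was below that line over 15 genes from Kbtbd4 to Lrp4, but 8 of the 15 were below 0 and their median was -0.03. Over the whole of chromosome 2, tumor_36 stood at -0.14 and the other 14 between -0.02 and 0.06. The nearest genes to Sfpi1 on either side were uneven: the proteasome subunit Psmc3 stood at -0.54, -0.62 and -0.82 in tumor_36, tumor_9500 and tumor_9509, Slc39a13 at -0.25, -0.17 and 0.11, and Madd at -0.22, -0.17 and -0.53, while Mybpc3 was at 0.25 in tumor_9509. Low values of single genes also occurred in other tumours. Psmc3 stood at -0.69 in tumor_9514, where the Sfpi1 neighbours had a median of 0.02, and Madd at -0.37 in tumor_26.

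**Figure D4:**
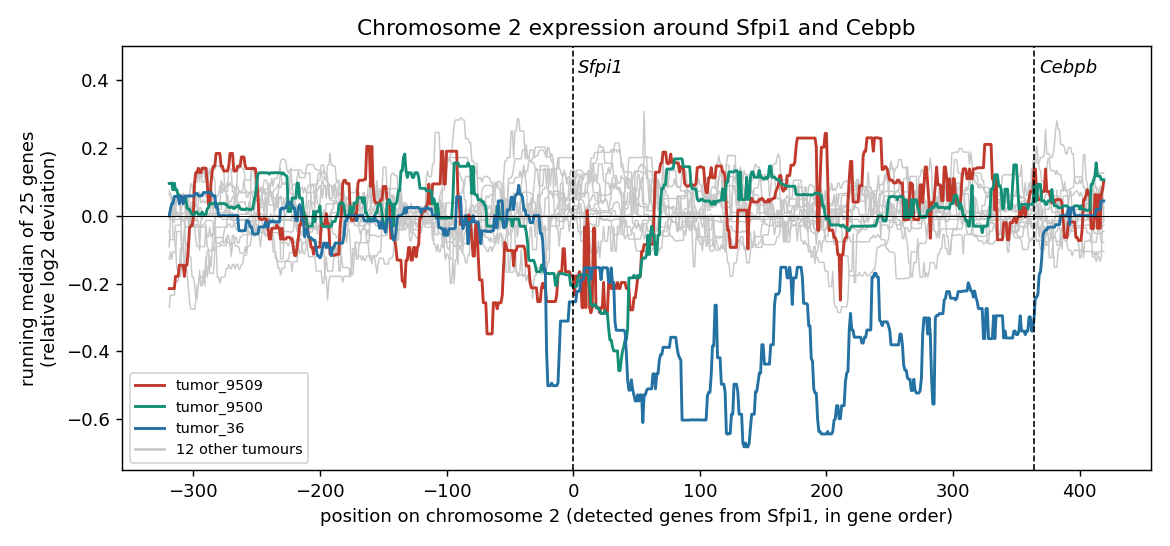
Running median over 25 detected genes of the relative log2 deviation along chromosome 2, in gene order from Sfpi1, for tumor_36, tumor_9500, tumor_9509 and the 12 other tumours (grey), with Sfpi1 and Cebpb marked. In tumor_36 the low stretch runs from 23 genes before Sfpi1 to 370 genes after it and holds Cebpb, 364 genes away.

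Cebpb lies inside the low stretch of tumor_36, near its far end. Its 50 neighbours had a median of -0.19 there, with 35 of 50 below 0, yet Cebpb read 6.82, or 0.12 above its own median in relative deviation. Of its nearest detected genes, the phosphatase Ptpn1 stood at -0.94, the ubiquitin-conjugating Ube2v1 at -0.59 and A530013C23Rik at -0.23, while Tmem189 stood at 0.29. Such low values were not particular to tumor_36. In tumor_9514, whose Cebpb neighbours had a median of 0.05, Ptpn1 stood at -0.80, Ube2v1 at -0.62 and A530013C23Rik at 0.17. The gene values of Cebpb and Sfpi1 were thus within the range of the other tumours in a spleen whose surrounding chromosome 2 genes were mostly low. By probeset, 1 of 6 of Cebpb was below 0 in tumor_36. This was the brightest one, 4873135, at -0.43 (9.12), whose r with the gene value was -0.53. The reading of Cebpb in this tumour therefore depends on the probeset.

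The chromosome comparison was made for every factor. Over all genes, 417 of 9745 (4.28%) followed their own chromosome and 549 (5.63%) their 50 nearest neighbours at an adjusted permutation p under 0.05; of the 9 factors, 0 did, with Klf4 at an unadjusted p under 0.05 for its neighbours. Klf4 had r = 0.56 with its neighbours (permutation p = 0.0313, adjusted p = 0.168; rho = 0.50), 0.26 without the 2 farthest tumours and 0.76 within the 10. Runx1 had r = -0.46 with its neighbours (p = 0.0779).

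Etv6 was the 1 factor that passed the adjusted threshold once the pair was left out. Other values moved as well: for Cebpa, r with its chromosome went from 0.31 to -0.10 and with its neighbours from 0.48 to -0.07, and Klf4 with its neighbours went to 0.24. Its neighbours and chromosome 6 were not low in tumor_9509 and tumor_9514: the chromosome stood at 0.21 and 0.14, among the highest of the series, while Etv6 itself stood at -1.19 and -1.16. All 50 of its 50 neighbours (D6Wsu163e to Bcat1) were at or above it in both. Over the other 13 tumours, Etv6 followed chromosome 6 at r = 0.79 (permutation p = 0.00078, adjusted p = 0.0418; rho = 0.87, p = 0.00017). For its 50 neighbours r was 0.86 (permutation p = 0.00018, adjusted p = 0.0428; rho = 0.85, p = 0.00047). In the same 13 tumours 2.39% of all genes followed their chromosome and 1.32% their neighbours. Without tumor_31 and tumor_9523 the values were 0.88 and 0.88 (n = 11), and within the 8 tumours with 4-digit names 0.87 and 0.91.

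The 13 tumours fell on both sides of 0 in chromosome 6. In 4 of them, tumor_9523 (0.23), tumor_31 (0.21), tumor_29 (0.09) and tumor_9529 (0.08), the chromosome was above 0, and Etv6 lay between 10.40 and 10.69. In the other 9 the chromosome lay between -0.08 and -0.01, and Etv6 between 9.56 and 10.25. The 2 ranges of Etv6 did not overlap; the dividing line at 0 was set after the values were seen.

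**Figure D5:**
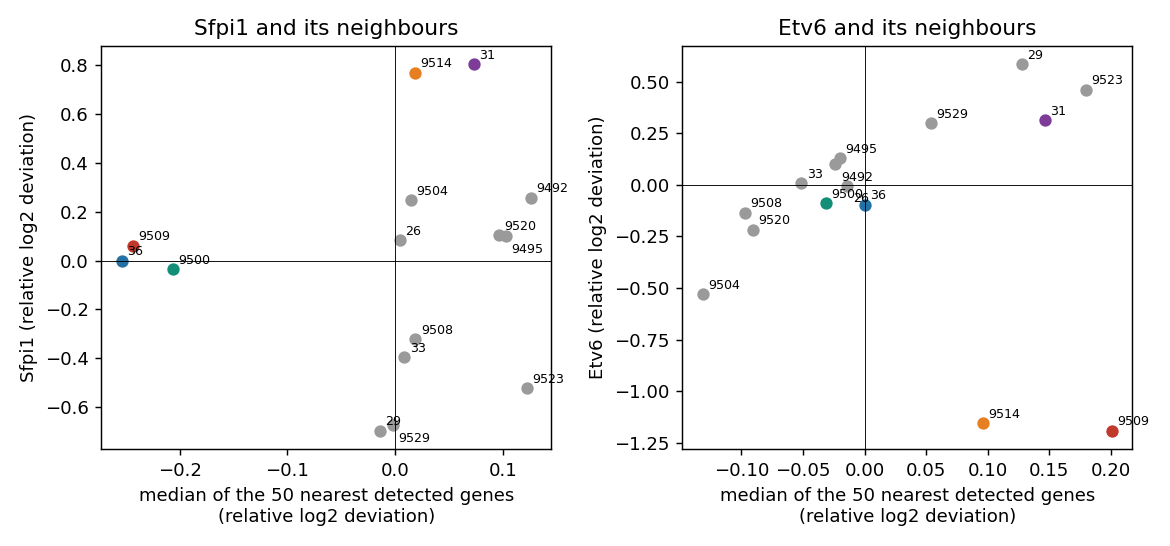
Relative log2 deviation of Sfpi1 (left) and Etv6 (right) against the median of their 50 nearest detected genes, 1 point per tumour. Sfpi1 is near 0 in tumor_36, tumor_9500 and tumor_9509, where its neighbours are lowest (-0.25 to -0.21), and Etv6 follows its neighbours in 13 tumours (r = 0.86) but lies at -1.19 and -1.16 in tumor_9509 and tumor_9514.

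Across the genome, Etv6 was the factor with calls. Over 15 tumours, 2670 of 9778 genes (27.3%) passed the adjusted threshold, 2539 higher with Etv6 (26%) and 131 lower (1.34%), and the permutation test called 2396; 39.3% had an unadjusted p under 0.05. After quantile normalization of the arrays the calls were 900 higher and 622 lower. Without tumor_9509 and tumor_9514 the count was 58 (0.593%), 52 higher and 6 lower, of which 28 were among the 2670 with the same sign. Within the 8 tumours with 4-digit names that remain, limma called 0 genes, with 1190 at an unadjusted p under 0.05. The 2670 thus rested largely on the pair that stands apart over all genes and has the lowest array medians. The part of array intensity in these calls was not tested. Etv6 results that follow are therefore given for 13 tumours as well.

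The 58 genes lay largely on chromosome 6. Of them 31 (53.4%) were on Etv6's own chromosome, all 31 higher with Etv6, where 467 of 9778 tested genes (4.78%) are. The median r of chromosome 6 genes was 0.42 over the 13 tumours, beside 0.08 over all genes. Over 15 tumours, 121 of the 2670 (4.53%) were on chromosome 6. Examples, chosen after their values were seen, are the mitochondrial carrier Slc25a13 (r = 0.89 over 13 tumours, adjusted limma p = 0.0197), the condensin subunit Ncapd2 (r = 0.90), the RNA-binding Lsm8 (r = 0.93) and the replicative helicase subunit Mcm2 (r = 0.85, adjusted p = 0.0276). Tmem43, also on chromosome 6, was among the 3 genes most like Etv6 over 15 tumours, with Snx1 and Recql5; over 13 tumours their r was 0.85, 0.87 and 0.85. The most opposed were 9030612E09Rik and Smim14, at -0.60 and -0.59 over 13.

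The lists of related regulators were read against the 26% of all genes called higher with Etv6 over 15 tumours. Of 11 other ETS factors, 5 were higher with Etv6: Elf1 (adjusted limma p = 0.00128), Elf2 (0.00445), Gabpa (0.0071), Elk4 (0.0104) and Ets2 (0.0117). Without the pair 0 passed, and their r was 0.56, 0.21, 0.34, 0.75 and 0.11 in that order. Of 4 genes of the Runx and Eto families, Runx3 (adjusted p = 0.00883; r = 0.31 over 13) and Runx2 (adjusted p = 0.0357; r = -0.21 over 13) were higher. Both were at their lowest in tumor_9509 and next lowest in tumor_9514. Among 20 other myeloid and lineage regulators 6 were higher, a share near that of all genes, and 0 passed over 13. They were led by the lymphoid and myeloid factor Ikzf1 (adjusted p = 0.000995), Myb (0.00102) and Myc (0.00126), with r over 13 of 0.48, 0.69 and 0.19.

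Stem and progenitor genes had a median r of 0.41 with Etv6 over 15 tumours, beside 0.32 over all genes. Of 6, 2 were higher, near the 26% of all genes: Myb, a factor of proliferating progenitors (adjusted p = 0.00102), and the receptor Kit (adjusted p = 0.0107). Over 13 tumours the median r of the list was 0.65 beside 0.08 over all genes, and the next lists were mature neutrophil genes (0.46) and other ETS factors (0.34). In the stem and progenitor list, 0 passed the adjusted threshold and 4 had an unadjusted p under 0.05, where 10.8% of all genes were in that direction. These were Erg (r = 0.71), Myb (0.69), Kit (0.68) and Cd34 (0.63). Kit ran from 7.80 in tumor_9514 to 9.98 in tumor_29, and Cd34 from 9.02 in tumor_9504 to 10.57 in tumor_9523. Of 6 primary granule genes, Mpo, Cst7 and Ctsg were higher over 15 tumours, where 26% of all genes were (adjusted p = 0.00302, 0.0111 and 0.0346), and their r over 13 was 0.65, -0.24 and 0.36.

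Markers of other spleen cells were also among the Etv6 calls over 15 tumours. Of 6 red pulp macrophage genes, Vcam1 and Hmox1 were higher over 15 tumours (adjusted p = 0.00323 and 0.0162), near the 26% of all genes. Their r over 13 tumours was 0.41 and 0.71, and the list's mean deviation was lowest in tumor_9509 (-0.79) and tumor_9514 (-0.63). Of 4 endothelial and stromal genes, Pecam1 was higher (adjusted p = 0.00809; r = 0.57 over 13). Cd79a, 1 of 4 B cell genes, and Cd3g, 1 of 6 T cell genes, were lower (adjusted p = 0.0367 and 0.0395; r = -0.02 and -0.42 over 13), where 1.34% of all genes were. Over 13 tumours 0 of these passed. The part of these cells in the Etv6 calls was not tested.

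Runx1 had the most genes at an unadjusted p under 0.05 among the 8 factors without calls, and 973 of the 1162 were higher with it. The genes most like it were the short-chain fatty acid receptor Ffar2 (r = 0.84, rho = 0.89, adjusted p = 0.078), the matrix glycoprotein Emilin2 (r = 0.83, adjusted p = 0.078) and the NF-kappaB subunit Nfkb2 (r = 0.82). Ffar2 ran from 6.88 in tumor_9529 to 8.97 in tumor_36, the lowest and the highest tumour of Runx1. The secreted protease inhibitor Slpi (r = -0.80, adjusted p = 0.078) and the proteasome ATPase Psmc6 (-0.80) were most opposed, and Slpi ran from 13.31 in tumor_9509 down to 10.74 in tumor_36. Ffar2 kept r = 0.81 without the 2 farthest tumours, and Slpi -0.59.

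Genes known to be bound by Runx1 did not stand out. Of 7 tested targets, 0 had an unadjusted p under 0.05, and their median r was 0.23 beside 0.13 over all genes. Its relative Runx2 had r = 0.63 (adjusted p = 0.27), 0.45 without tumor_9509 and tumor_9514. Among 4 erythroid markers, the globin Hbb-b1 (r = -0.62) and Alas2, the first enzyme of haem synthesis (-0.52), had an unadjusted p under 0.05 in the lower direction, where 1.93% of all genes did.

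Gfi1 was asked against genes it is known to repress. Of 8 tested, the zinc-finger gene Egr2 was lower (r = -0.50) and the monocyte receptor Csf1r higher (r = 0.59) at an unadjusted p under 0.05, with adjusted p = 0.644 for Egr2 and 0.644 for Csf1r, where 1.65% of all genes were lower and 5.91% higher. The median r was -0.23 beside 0.13 over all genes. The list includes Irf8, whose r of 0.53 is given above. The genes most like Gfi1 were Sdhaf2, an assembly factor of succinate dehydrogenase (r = 0.87, adjusted p = 0.643), the kinase Rps6ka4 and the sorting nexin Snx8 (both 0.80); Lsm6 (-0.79) and Zfp759 (-0.78) were most opposed. The erythroid genes Hbb-b1 (r = -0.71) and Slc4a1 (-0.52), had an unadjusted p under 0.05 among 4. When Gfi1 was taken as the mean of its probesets, which lets the bright ones count, 1642 genes passed. Of these, 1156 were also called with Etv6 over the same 15 tumours, that is 70.4% of the Gfi1 calls and 43.3% of the Etv6 calls. Of all genes, 27.3% were called with Etv6. By the mean, Gfi1 was lowest in tumor_9509 (7.35) and read 7.46 in tumor_9514. Calls with this mean were not repeated without the pair.

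Among lists with at least 4 tested genes, Irf8 had its lowest median with genes of eosinophils, basophils and mast cells. All 6 tested had r below 0, with a median of -0.56 beside -0.04 over all genes (-0.44 without the 2 farthest tumours, -0.34 within the 10, where 1 was above 0). None passed the adjusted threshold (adjusted p = 0.999), and 5 had an unadjusted p under 0.05, where 1.81% of all genes did in that direction. The basophil protease Mcpt8 had r = -0.69 and histidine decarboxylase (Hdc) -0.61, followed by the mast cell carboxypeptidase Cpa3 (-0.59) and the eosinophil granule genes Prg3 (-0.52) and Prg2 (-0.48); Epx was at -0.15. Prg3 ran from 5.14 in tumor_36 to 11.11 in tumor_33, and the list's mean deviation from -1.67 to 1.55 in the same 2 tumours. The gene value of Irf8 was second highest in tumor_36 and lowest in tumor_33. Its brightest probeset, 5598827, read 8.75 and 8.44 there, both above its median of 8.38. Of its 9 probesets, 2 followed the median of the others at r above 0.5. The 3 tested megakaryocyte markers had a lower median r, -0.58, with 2 at an unadjusted p under 0.05, and -0.15 without the 2 farthest tumours.

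Of 12 Irf8 target and monocyte genes, the protease Ctss (r = 0.65) and the oxidase subunit Cybb (0.54) had an unadjusted p under 0.05, where 1.25% of all genes did in that direction, with a list median of 0.23. The interferon-induced gene Ifitm3 was most like Irf8 (r = 0.77, rho = 0.53, adjusted p = 0.999), running from 9.21 in tumor_9523 to 12.49 in tumor_9500. Plpp6 (0.73) and Chn2 (0.72) followed, and Dcaf10 (-0.78) and the syndecan Sdc3 (-0.77) were most opposed. The gene value of Irf8 lay near the limit, and its split-half r was below that of Sfpi1 and Etv6.

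Klf4 had no list with a gene at an unadjusted p under 0.05 among its own monocyte and KLF lists (0 of 11 Irf8 target and monocyte genes, 0 of 7 other KLF factors). Fam43a, Sox13 and Tent5b were most like it (r = 0.76, 0.75 and 0.75), and Pla2g3 and Dffa, the inhibitor of a nuclease of apoptosis, most opposed (both -0.74), with adjusted p = 0.999. Cebpa was most like riboflavin kinase (Rfk) and the thioesterase Acot9 (both r = 0.80) and the sphingosine phosphate transporter Spns2 (0.78), and most opposed to Klhl26 (-0.80) and the lectin Cd209a (-0.78), with adjusted p = 0.976. Of 12 C/EBP targets, 0 had an unadjusted p under 0.05 with Cebpa and 0 with Cebpb.

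Cebpb was set against monocyte and macrophage genes. Of 6 monocyte markers, the chemokine receptor Ccr2 was higher (r = 0.66) and Csf1r (-0.61) and Cd14 (-0.49) lower at an unadjusted p under 0.05, where 1.55% and 3.63% of all genes were (adjusted p for Csf1r = 0.891). Without tumor_9509 and tumor_9514, Csf1r was the 1 gene of 9778 (0.0102%) past the adjusted threshold with Cebpb (r = -0.90, adjusted p = 0.0444). Brcc3 (0.83), Zic2 (0.79) and Evx2 (0.75) were most like Cebpb, and Cyp4f13 (-0.84) and the phospholipid transfer protein Pltp (-0.79) most opposed. The probesets of Cebpb do not follow one another, and this limits every value in which its order of tumours is used.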

How the data were processed

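RNA of 15 APL spleens was measured on exon arrays. The authors deposited 1 intensity per probeset on a linear scale; RMA and the build mm9 are named, without versions, in the submitters' processing notes. The deposited intensities were log2 transformed here. Scanner files were not analysed, so background correction and slide could not be varied. The number of arrays limits the precision. Of 229581 probesets, 208397 had 1 symbol; 2099 symbols were updated through RefSeq (GRCm38.p6), which was used for names and gene order only, since the build differs from mm9. A gene value is the median over probesets, and detected genes exceeded the 40th percentile of gene means.

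limma (lmFit, eBayes) tested each gene against each factor, two-sided, with Benjamini-Hochberg adjustment over all genes. Pearson's r and Spearman's rho had two-sided permutation tests of 100000 resamples. Neighbours are the 25 nearest detected genes on each side. Named are the members; the 3 most and 2 least correlated genes per factor; per list up to 3 genes a direction past the threshold and genes behind counts of 5 or fewer; and 2 genes on each side of Sfpi1 and Cebpb. The members and lists were chosen with earlier results of these data known. Alternatives were the mean or the brightest probeset, bright probesets alone, quantile normalization, no filter, and arrays left out. Choosing the brightest probeset was an addition made once values were known. The fits were tested on simulated data. Software was R 4.3.3, limma 3.58.1 and Python 3.11.15.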

Additional observations from a re-analysis of the deposited data

How the results depend on the processing

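Counts of genes associated with a factor depended on how its probesets were combined. With the mean over probesets they were 1 for Cebpe (Ankrd22), 1642 for Gfi1, 9 for Sfpi1 and 21 for Runx1. With bright probesets alone they were 10 for Gfi1 and 4 for Sfpi1 (Cotl1, Rogdi, Foxn2 and Gpr84). After quantile normalization they were 2 for Cebpe (H2ac1 and H4c14), 171 for Sfpi1, 6 for Runx1 and 1522 for Etv6. With the brightest probeset they were 12 for Cebpe, 2267 for Gfi1, 3 for Sfpi1 (Gpr84, Chac1 and Cotl1), 3 for Klf4 (Fam133b, Aspa and Cep72), 1 for Runx1 (Gnat2) and 1141 for Etv6. Without tumor_9509 and tumor_9514 they were 1 for Cebpb and 58 for Etv6. One pair of factors was called with the mean over probesets (1, Etv6 with Gfi1) and 1 within the 10 tumours (Cebpe with Etv6). Genes following their chromosome numbered 832 with the mean, 233 without the 2 tumours and 134 without a filter, and genes following their neighbours 1248, 129 and 286. Etv6 with its chromosome turned from -0.04 to 0.79 without the 2 tumours, and with its neighbours reached 0.86; Klf4 with its neighbours reached 0.75 (adjusted permutation p = 0.0193) with the mean. The causes of the other changes were not tested. The remaining 63 counts and 128 single values kept their side of the threshold or moved by less than the spread between tumours, and 4 levels moved by more. Gene values near the detection limit restrict Cebpb, Irf8 and Klf4. No paired analysis was possible because all tumours form 1 group and their numbers pair nothing.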
